A study of Oryza sativa with 8 samples.

Results

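The response of the rice coleoptile to 1 h of simulated shade was read from 4 RNA-seq libraries, 2 from shaded seedlings and 2 from seedlings kept in white light. The loci described are the 20835 of 55801 in the table whose mean over these 4 libraries was at least 1 FPKM, a fragment number scaled by transcript length and by mapped fragments, which corrects for transcript length. The shaded group holds coleoptiles of 2-day-old wild type seedlings, cultivar Nipponbare, after 1 h of shade whose photon flux, in µE per m2 and s, was 16 in red, 1.3 in blue and 48 in far-red. The white light group holds coleoptiles of the same cultivar and age that had 1 h more of white light. All seeds stood in water at 37 °C for 24 h, and all seedlings grew at 28 °C in continuous white light on 0.4% agar or floating on water. No group carries a mutation or a transgene, and every group shares the warm soaking and the constant light. The series has 8 libraries, of which the other 4 come from first leaves of 3-day-old seedlings with the same light treatments. Nothing in the labels says that replicates came from separate cultures, so the spread behind every p-value may be technical.

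The coleoptile is the sheath that encloses the first leaves of a grass seedling and protects them until they reach the light; it grows by cell elongation and dies early. Leaves above a plant absorb red and blue light and let far-red light pass, and plants sense the lower ratio of red to far-red light through phytochromes. In shade, phytochrome B loses its active form, and phytochrome-interacting helix-loop-helix factors, which the active form holds back, drive auxin, gibberellin and cell wall genes that support elongation. Most of this is known from Arabidopsis seedlings, while less is known for the coleoptile.

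The white light replicates differed from each other far more than the shaded replicates did, and the values and list medians of each are therefore given on their own, replicate 1 before replicate 2. Across the 20835 loci, log2(FPKM + 1) correlated at r = 0.981 between the shaded libraries and at r = 0.910 between the white light libraries. White light replicate 2 was closer to shade (r = 0.950 and 0.956) than to its own replicate, while white light replicate 1 correlated with shade at r = 0.900 and 0.902. The shaded libraries were over 2-fold apart at 312 loci (1.5%), and the white light libraries at 3230 loci (15.5%). At 2516 of these 3230 loci replicate 1 was the higher. Throughout, fold differences are taken on FPKM + 1, so that they understate the change of low loci. For 6875 loci (33.0%) both shaded libraries lay between the white light libraries, so that the direction of the shade response depends on which white light library is taken. Total fragment numbers are not given, so the depth behind each value is unknown. The summed FPKM was 771174 and 696059 in shade, against 775012 and 808054 in white light.

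The tissue label was compared with marker lists, since the lists hold no defining marker of the coleoptile itself. Summed over 81 loci annotated as chlorophyll a/b binding, Rubisco small subunit or photosystem proteins, the level was 34849 and 24879 FPKM in shade, against 21339 and 36157 FPKM in white light. The first leaf libraries held 48909 to 61369 FPKM of these transcripts, more than any coleoptile library. Loci of dividing cells (histones, cyclins and replication proteins) summed to 6289 and 5824 FPKM in shade, against 8151 and 5496 FPKM in white light. Seed proteins summed to 2389 and 1690 FPKM in shade, against 3913 and 1842 FPKM in white light. In the last 2 lists white light replicate 1 was the highest coleoptile library, and in the photosynthesis list it was the lowest. These values separate the white light replicates rather than the light treatments, and their part in the results below was not tested. In bulk tissue, fewer cells of a type and less RNA per cell cannot be told apart.

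Few single loci passed the test, which uses 1 estimate of the spread per locus, shared by the 4 groups. The white light coleoptile replicates differed far more than the shaded ones, so the shared estimate can understate their spread. In limma, fitted to log2(FPKM + 1) over all 8 libraries, 18 loci (0.0864%) had an adjusted p under 0.05, of which 13 (0.0624%) rose and 5 (0.024%) fell in shade. Without adjustment, 2140 loci (10.3%) had p under 0.05, 907 higher (4.35%) and 1233 lower (5.92%). Of the 18 calls, 10 share an adjusted p of 0.0498 in limma and so lie just inside the threshold, and the next locus outside it has 0.0617. The count rests on single libraries. It was 203 (121 higher, 82 lower) without white light replicate 1 and 1826 (445 higher, 1381 lower) without white light replicate 2. It was 10 without shade replicate 1, 0 without shade replicate 2 (1488 at an unadjusted limma p under 0.05) and 3 without any 1 of the first leaf libraries, which enter the fit to share its estimate of the spread. All 18 loci are among the 203 and among the 1826. With 2 libraries against 2, an exact two-sided permutation test of a single locus cannot go below p = 0.333.

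A second description asks only whether both shaded libraries lie clear of both white light libraries. Both lay above both white light values at 3641 loci (17.5%) and below both at 3221 loci (15.5%). With a gap of over 2-fold, 68 loci (0.326%) lay above and 335 (1.61%) lay below. These sets were chosen on the values themselves and are described without a test. The 68 loci had median levels of 4.60 and 6.83 FPKM in shade, against 0.250 and 0.165 FPKM in white light. Of them, 22 were listed at 0 in both white light libraries, and 41 had a white light mean under 1 FPKM and so entered the set of loci only through the shaded libraries. The 335 loci had median levels of 4.91 and 5.40 FPKM in shade, against 62.8 and 20.6 FPKM in white light. Of these, 62 had a shade mean under 1 FPKM and so entered the set of loci only through the white light libraries. White light replicate 1 exceeded replicate 2 at 323 of the 335 loci, and 1492 loci lay over 2-fold below replicate 1 when it was taken alone, against 422 below replicate 2 alone. The lower loci are therefore mostly transcripts that were high in white light, highest in 1 library, and low in both shaded libraries, while the higher loci are mostly transcripts near 0 in white light.

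**Figure D1:**
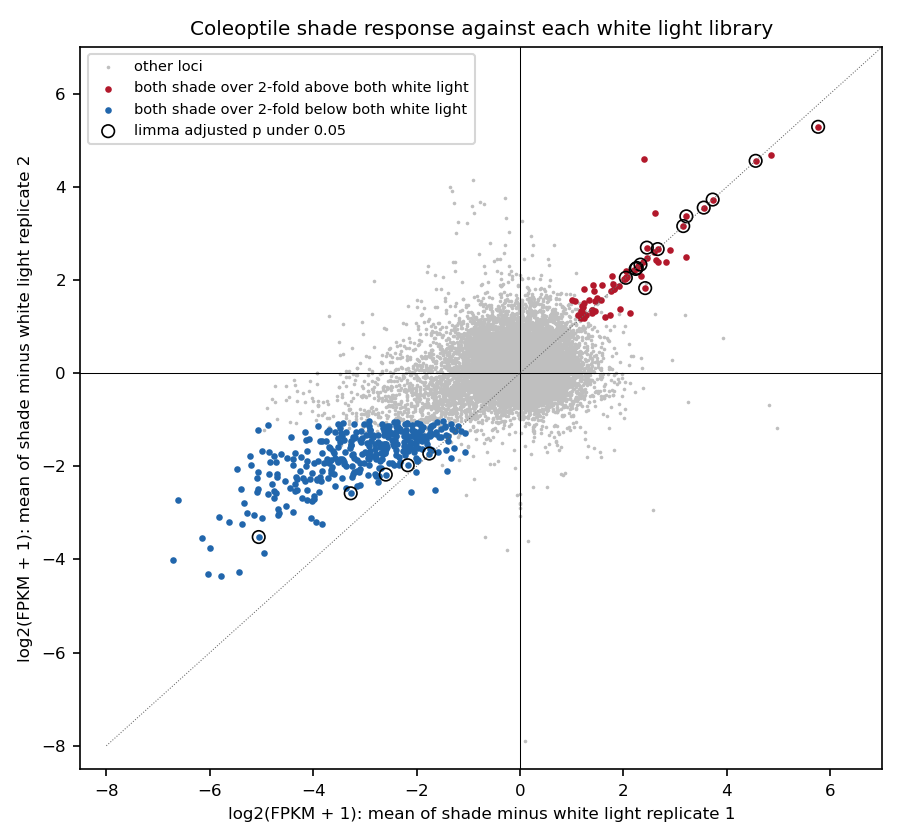
Each point is 1 of the 20835 loci, placed by the mean of the shaded libraries minus white light replicate 1 (horizontal axis) and minus white light replicate 2 (vertical axis), in log2(FPKM + 1), with the 68 loci over 2-fold above in red, the 335 over 2-fold below in blue and the 18 called loci ringed. The red points lie near the dotted line of equal change, and the blue points lie mostly above that line, further from 0 against replicate 1 than against replicate 2.

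The 13 loci called higher were mostly annotated as cell wall or secreted proteins. Of the 13, 8 (61.5%) belong to the wall lists, which hold 2.04% of the loci tested, and none belongs to the stress lists. All 8 are among the 12 of the 13 that had a white light mean under 1 FPKM, and so passed the filter only through the shaded libraries. The same holds for 41 of the wider set of 68 loci. The shares given here therefore describe these loci and are no test of the wall lists. Among the wider set of 68 loci, 20 (29.4%) belong to the wall lists, and 24 (35.3%) do when lipid transfer proteins are included, against 2.45% of the loci tested. Wall proteins of this kind build, loosen or crosslink the cell wall of growing and maturing cells.

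Glycine-rich wall proteins, found in walls of vascular and elongating tissue, made up 5 of the 13. LOC_Os10g31660 had 35.9 and 79.2 FPKM in shade, against 0 and 0.393 FPKM in white light (limma log2 change 5.53 ± 0.41 SE, adjusted p = 0.0122). LOC_Os10g31530 had 19.0 and 26.7 FPKM in shade, and both white light replicates list it at 0 (limma adjusted p = 0.00396). LOC_Os10g31680 had 12.5 and 11.9 FPKM in shade and was also listed at 0 in each white light replicate (limma adjusted p = 0.00396). LOC_Os10g31640 and LOC_Os10g31540 were lower, at 3.10 to 11.9 FPKM in shade, against at most 0.109 FPKM in white light. In each of these loci the groups stood far apart, although a 0 in the table may stand for an estimate that failed, as 6 loci whose median reached 10 FPKM have a 0 in a coleoptile library. The calls of LOC_Os10g31530, of LOC_Os10g31680 and of their neighbour LOC_Os10g31670 held in 14 of 18 alternative analyses, and those of the other 15 called loci in 4 to 9.

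The called glycine-rich loci all carry neighbouring identifiers on chromosome 10, a pattern noticed after the values were seen. The stretch from LOC_Os10g31500 to LOC_Os10g31740 has 24 loci in the table, of which 12 are annotated as glycine-rich. Of the 12 loci of the stretch that passed the filter, 10 lay over 2-fold above both white light libraries and 7 were called. The other 2 called loci are annotated as retrotransposon proteins. LOC_Os10g31670 had 10.6 and 10.9 FPKM in shade and 0 in each white light replicate (limma adjusted p = 0.00411). LOC_Os10g31730 had 6.59 and 9.48 FPKM in shade, likewise listed at 0 in white light (limma adjusted p = 0.0155). The rRNA assembly protein LOC_Os10g31520, within the stretch, overlapped between the groups, with 22.3 and 26.3 FPKM in shade, against 27.0 and 22.5 FPKM in white light. Near-identical copies can share reads, and neither the strand of the libraries nor the treatment of shared reads is given, so the split of the signal over these loci is uncertain. Chromosome 10 held 17 of the 68 higher loci (25.0%), against 5.17% of all loci tested, and 7 of the 17 lie outside the stretch. In the first leaf no locus of the stretch but LOC_Os10g31520 exceeded 0.657 FPKM in any library. LOC_Os10g31530 had 0.0760 and 0.186 FPKM in shaded first leaves and 0 in both replicates of white light first leaves.

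**Figure D2:**
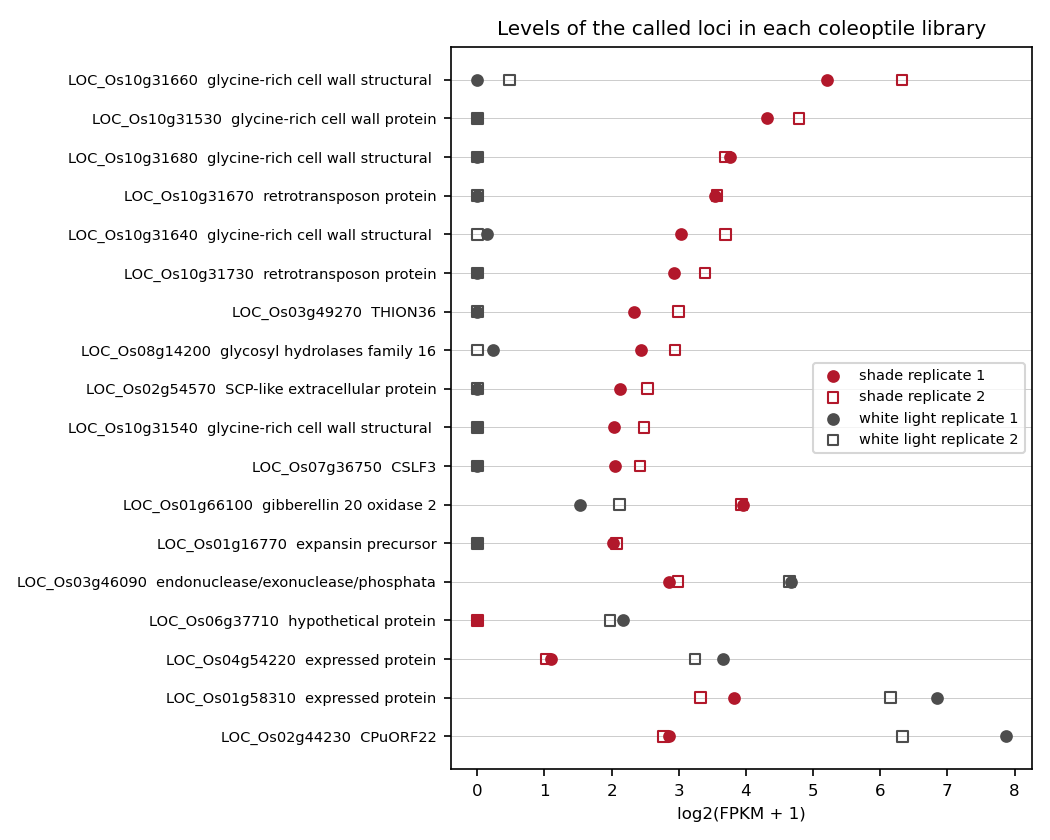
Levels of the 18 called loci in the 4 coleoptile libraries, in log2(FPKM + 1), with shade in red and white light in grey, replicate 1 filled and replicate 2 open. The 13 loci that rose are mostly at 0 in white light, and LOC_Os01g66100 stands out by a level above 0 in all 4 libraries.

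Among other wall loci, 1 expansin, 1 cellulose synthase-like locus and 1 glycosyl hydrolase of family 16 rose, each with limma adjusted p = 0.0498. Expansins loosen the bonds between cellulose and other wall polymers as cells elongate. LOC_Os01g16770, an expansin, had 3.05 and 3.22 FPKM in shade and was listed at 0 in both white light libraries. CSLF3 (LOC_Os07g36750), of the family that makes the mixed-linkage glucan of grass walls, had 3.14 and 4.36 FPKM in shade and was also listed at 0 in white light. LOC_Os08g14200, of the family that holds xyloglucan-cutting and rejoining enzymes, had 4.44 and 6.69 FPKM in shade, against 0.182 and 0 FPKM in white light (limma log2 change 2.57 ± 0.27 SE). These 3 transcripts are low, between 3.05 and 6.69 FPKM in shade, and the first leaf had at most 0.104 FPKM of them. Of the other loci with adjusted p = 0.0498 in limma, the SCP-like extracellular protein LOC_Os02g54570 had 3.37 and 4.78 FPKM in shade and was listed at 0 in white light. THION36 (LOC_Os03g49270), of the thionins, small antimicrobial peptides, had 4.03 and 6.97 FPKM in shade and was listed at 0 in white light.

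Most members of the wall families did not pass the test. Expansins had 29 of 63 loci past the filter, with a median log2 change of 0.17 (0.38 against white light replicate 1, 0.02 against replicate 2), beside 0.02 over all loci tested (0.05 and -0.01). Of these, 3 (10.3%) lay over 2-fold above both white light libraries and 0 below, by a rule that takes 0.326% and 1.61% of all loci. Among the 3, LOC_Os01g16770 and LOC_Os05g19600 passed the filter only through the shaded libraries, so this share is not counted as a result. LOC_Os05g19600 had 2.61 and 7.404 FPKM in shade and was listed at 0 in white light, and LOC_Os03g06000 had 5.32 and 5.27 FPKM in shade, against 1.32 and 1.15 FPKM in white light. Both missed the limma threshold, with adjusted p of 0.105 and 0.117. A pair of abundant expansins, looked up after their values were seen, showed the white light replicates on either side of shade or nearly so. LOC_Os01g60770 had 1326 and 948 FPKM in shade, against 308 and 1112 FPKM in white light. LOC_Os05g39990 had 1182 and 802 FPKM in shade, against 281 and 1355 FPKM in white light. Against replicate 1 alone both would read as several-fold higher in shade, and against replicate 2 LOC_Os05g39990 would read as lower.

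Secreted peroxidases, which crosslink wall polymers and handle hydrogen peroxide in the wall, had 83 of 140 loci past the filter. The median log2 change was 0.28 (0.52 and 0.23 against the white light replicates), 17 had an unadjusted p under 0.05 on the higher side and 3 on the lower side, beside 4.35% and 5.92% of all loci, and none was called. LOC_Os04g59260 had 41.0 and 29.7 FPKM in shade, against 5.81 and 0.475 FPKM in white light (limma adjusted p = 0.139). LOC_Os03g02939 had 6.98 and 15.8 FPKM in shade, against 0.809 and 1.23 FPKM in white light (limma adjusted p = 0.0973). LOC_Os12g02060 had 29.1 and 23.9 FPKM in shade, against 7.65 and 12.6 FPKM in white light (limma adjusted p = 0.130). In all 3 the groups do not overlap, an order favoured by their choice as the loci of smallest unadjusted limma p in the list. The white light replicates of LOC_Os04g59260 differ widely.

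Lipid transfer proteins are small secreted proteins of the cuticle and wall. Of 85 loci tested, 4 lay over 2-fold above both white light libraries and 0 below, beside 0.326% and 1.61% of all loci. The highest was LTPL112 (LOC_Os02g44310), with 29.96 and 136 FPKM in shade, against 1.26 and 1.53 FPKM in white light (limma adjusted p = 0.0853). Here the shaded replicates themselves differ more than usual. LTPL88 (LOC_Os10g11730) had 2.19 and 7.08 FPKM in shade, against 0 and 0.195 FPKM in white light, and passed the filter only through the shaded libraries. The cellulose synthase families had 2 of 35 over 2-fold above, the second being CSLC3 (LOC_Os08g15420), with 2.59 and 2.96 FPKM in shade, against 0 and 0.0321 FPKM in white light (limma adjusted p = 0.0672). CSLF3 and CSLC3 both passed the filter only through the shaded libraries, so this count is not a result about the family. The defensin DEF12 (LOC_Os04g44130) had 14.1 and 6.66 FPKM in shade, against 0.771 and 0 FPKM in white light (limma adjusted p = 0.0859).

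Other wall genes lay below white light or on both sides of it. The family 16 loci LOC_Os04g51460 and LOC_Os06g48200 ran opposite to LOC_Os08g14200. LOC_Os04g51460 had 7.17 and 11.4 FPKM in shade, against 94.9 and 39.1 FPKM in white light, and LOC_Os06g48200 had 59.2 and 65.5 FPKM in shade, against 266 and 128 FPKM in white light. Over the 22 family 16 loci tested, the median log2 change was -0.57 against white light replicate 1 and 0.39 against replicate 2, so the family has no common direction. Phenylalanine ammonia-lyase, the entry enzyme of lignin and phenylpropanoid synthesis, was low in shade at LOC_Os02g41670, with 5.30 and 11.2 FPKM, against 173 and 48.6 FPKM in white light (limma adjusted p = 0.142). LOC_Os04g43800, annotated as the same enzyme, had 6.51 and 5.36 FPKM in shade, against 70.0 and 15.5 FPKM in white light. The dirigent locus LOC_Os12g12600, of a family that guides lignan and lignin coupling, lay the other way, with 2.54 and 3.96 FPKM in shade, against 0.212 and 0.118 FPKM in white light. Pectin enzymes had 0 of 70 loci past 2-fold in either direction. The extensin, fasciclin and arabinogalactan list also had 0, of 77, with 58 of its members positive and a median log2 change of 0.18 (0.20 and 0.21).

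Some root cap transcripts lay above white light beside these wall genes. Of the 12 loci of the root list, 5 passed the filter and 2 of these lay over 2-fold above both white light libraries. Since 4 of the 5 had a white light mean under 1 FPKM and passed only through the shaded libraries, their sign is not counted as a result. RCLEA5 (LOC_Os01g73730), of the root cap and late embryogenesis family, had 2.35 and 3.67 FPKM in shade, against 0.314 and 0.0700 FPKM in white light. RCLEA8 (LOC_Os05g47940) had 1.67 and 2.99 FPKM in shade, against 0.163 and 0.0605 FPKM in white light. RCLEA6 (LOC_Os04g33520), the most abundant of the list in shade, overlapped between the groups, with 4.71 and 3.86 FPKM in shade, against 4.35 and 3.27 FPKM in white light. The nitrate transporter LOC_Os04g40410, under the filter, had 0.581 and 1.06 FPKM in shade, against 1.09 and 0.809 FPKM in white light. The list summed to 16.5 and 18.7 FPKM in shade, against 7.50 and 7.41 FPKM in white light. The defining root cap proteins LOC_Os07g23600 and LOC_Os07g23690, and RCLEA3 (LOC_Os01g73710), were listed at 0 in every library. The part of root tissue in the higher wall transcripts was not tested.

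Gibberellin genes gave the called hormone locus. Gibberellins promote cell elongation, gibberellin 20-oxidases make precursors of the active gibberellins, and gibberellin 2-oxidases inactivate gibberellins. The gibberellin 20 oxidase 2 locus LOC_Os01g66100, known in rice as the semidwarf gene of the green revolution varieties, had 14.5 and 14.3 FPKM in shade, against 1.88 and 3.35 FPKM in white light. It rose by 2.12 ± 0.24 SE on the log2 scale (limma adjusted p = 0.0498), with a range of 1.82 to 2.42 when any 1 library was left out. Its call held in only 4 of 18 alternative analyses, with limma adjusted p up to 0.395. It is the only called higher locus whose white light mean reached 1 FPKM. In first leaves it had 2.55 and 2.65 FPKM in shade, against 0.696 and 0.807 FPKM in white light, so it lay above white light there too, at a lower level. The 20-oxidase loci LOC_Os04g39980 and LOC_Os03g42130 lay the other way, the only 2 negative loci of the 8 synthesis loci tested. LOC_Os04g39980 had 7.21 and 5.71 FPKM in shade, against 29.1 and 9.09 FPKM in white light, and LOC_Os03g42130 had 3.17 and 2.06 FPKM in shade, against 4.62 and 5.08 FPKM in white light. The other 6 of the 8 synthesis loci were positive, and the median log2 change was 0.12 (0.09 and 0.11 against the white light replicates). Of the 8, only LOC_Os01g66100 was called.

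The inactivating enzymes lay mostly on the other side, though none passed the test. Of 11 gibberellin 2-oxidase loci 8 were tested, and 7 were negative. Of the 8, 3 (37.5%) lay over 2-fold below both white light libraries, beside 1.61% of all loci. The median log2 change was -1.75, with -2.35 against white light replicate 1 and -0.65 against replicate 2, the largest distance from 0 of all 47 lists against either. In 6 of the 8 loci, white light replicate 1 was over 2-fold above replicate 2. LOC_Os01g11150 had 5.57 and 4.50 FPKM in shade, against 19.97 and 11.5 FPKM in white light (limma adjusted p = 0.155). LOC_Os01g55240 had 1.03 and 1.80 FPKM in shade, against 21.9 and 5.51 FPKM in white light (limma adjusted p = 0.161). LOC_Os04g44150 had 4.59 and 3.26 FPKM in shade, against 35.5 and 10.3 FPKM in white light (limma adjusted p = 0.176). In the first leaf the median of the same 8 loci was 0.03. Among response genes, the receptor GID1L2 (LOC_Os05g33730) had 79.1 and 61.8 FPKM in shade, against 92.8 and 75.9 FPKM in white light, with overlapping groups. The GRAS family factor LOC_Os03g49990 had 85.3 and 76.2 FPKM in shade, against 79.7 and 36.8 FPKM in white light. The gibberellin-regulated GASR3 (LOC_Os03g55290) had 30.2 and 32.5 FPKM in shade, against 59.7 and 59.6 FPKM in white light (limma adjusted p = 0.188).

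Auxin genes showed small differences of both signs, and none passed the test. Auxin synthesis, transport and conjugation loci had 30 of 39 positive, with a median log2 change of 0.22 that was near equal against both white light replicates (0.20 and 0.23). The flavin monooxygenase LOC_Os07g25540, of the family that makes auxin from indole-3-pyruvate, had 10.8 and 13.4 FPKM in shade, against 3.43 and 6.66 FPKM in white light (limma adjusted p = 0.211). LOC_Os07g02130, of the same family, had 12.8 and 9.72 FPKM in shade, against 6.30 and 4.82 FPKM in white light. The auxin efflux carrier LOC_Os06g44970, which moves auxin out of cells, had 1.40 and 2.65 FPKM in shade and 0 in each white light replicate (limma adjusted p = 0.130). In all 3 the groups do not overlap, an order favoured by their choice as the loci of smallest unadjusted limma p in the list. LOC_Os06g44970 also passed the filter only through the shaded libraries.

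SAUR genes, fast auxin-induced growth genes, depended on the white light library. The median log2 change of the 36 loci tested was 0.76 against white light replicate 1 and -0.19 against replicate 2. OsSAUR40 (LOC_Os09g37350) had 4.94 and 6.29 FPKM in shade, against 2.05 and 1.52 FPKM in white light. OsSAUR37 (LOC_Os09g26590) had 5.47 and 5.29 FPKM in shade, against 2.14 and 2.38 FPKM in white light, while OsSAUR23 (LOC_Os04g56690) had 7.60 and 7.20 FPKM in shade, against 13.9 and 18.5 FPKM in white light. Of the 36 loci, 8 lay above both white light libraries and 4 below both, by a rule that takes 17.5% and 15.5% of all loci, so these counts do not set the family apart. The Aux/IAA repressors of auxin signalling changed sign in the same way, with a median of 0.29 against replicate 1 and -0.13 against replicate 2. OsIAA2 (LOC_Os01g09450) had 14.3 and 10.7 FPKM in shade, against 38.0 and 33.9 FPKM in white light, and OsIAA19 (LOC_Os05g48590) had 71.5 and 67.0 FPKM in shade, against 233 and 113 FPKM in white light. OsIAA25 (LOC_Os08g01780) had 7.24 and 6.47 FPKM in shade, against 2.47 and 4.74 FPKM in white light.

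No light receptor or partner locus passed the test. Phytochrome B (LOC_Os03g19590), the main receptor of the red to far-red ratio, had 14.7 and 13.9 FPKM in shade, against 12.3 and 12.6 FPKM in white light (limma log2 change 0.18 ± 0.20 SE, adjusted p = 0.920). Phytochrome C (LOC_Os03g54084) had 15.5 and 15.4 FPKM in shade, against 14.8 and 14.04 FPKM in white light. Phytochrome A (LOC_Os03g51030), the receptor for far-red light itself, had 24.6 and 32.3 FPKM in shade, against 20.1 and 33.97 FPKM in white light, with overlapping groups. A list of 5 helix-loop-helix loci, entered by identifier as relatives of the phytochrome-interacting factors, was positive throughout, with a median log2 change of 0.30 (0.62 and 0.28). LOC_Os05g04740 stood apart, with 30.2 and 27.2 FPKM in shade, against 12.9 and 14.8 FPKM in white light (limma log2 change 1.00 ± 0.21 SE, adjusted p = 0.136). LOC_Os12g41650 had 2.48 and 2.12 FPKM in shade, against 1.14 and 1.48 FPKM in white light, and phytochrome-interacting factor 4 (LOC_Os03g56950) had 6.42 and 6.55 FPKM in shade, against 4.74 and 5.46 FPKM in white light. LOC_Os07g05010 had 36.9 and 34.2 FPKM in shade, between the 19.9 and 43.8 FPKM of white light. In first leaves the median of these 5 loci was -0.32.

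B-box and homeobox leucine zipper (HD-Zip) factors, of which members respond to shade within minutes in Arabidopsis, held loci without overlap of the groups. Of 34 B-box and CCT loci 10 lay above both white light libraries and 3 below both, and of 22 HD-Zip loci 9 and 2. The same rule takes 17.5% and 15.5% of all loci. Of 34 B-box and CCT loci 7 had an unadjusted p under 0.05 on the higher side and 1 on the lower, beside 4.35% and 5.92% of all loci, and none was called. LOC_Os06g49880, a B-box factor, had 25.8 and 28.3 FPKM in shade, against 7.36 and 10.8 FPKM in white light (limma adjusted p = 0.134). LOC_Os06g15330, with both domains, had 12.3 and 11.4 FPKM in shade, against 5.08 and 5.27 FPKM in white light (limma adjusted p = 0.160). LOC_Os02g43170 lay the other way, with 37.1 and 40.9 FPKM in shade, against 114 and 90.7 FPKM in white light (limma adjusted p = 0.134). In first leaves LOC_Os02g43170 had 28.8 and 46.1 FPKM in shade, against 22.1 and 15.2 FPKM in white light, the opposite order to the coleoptile, and this difference between the tissues was not called.

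The HD-Zip list had a median log2 change of 0.33 over 22 loci, positive against each white light replicate (0.45 and 0.25), with 7 at an unadjusted p under 0.05 on the higher side and 0 on the lower, beside the same 4.35% and 5.92%. LOC_Os06g04870 had 20.1 and 21.5 FPKM in shade, against 8.69 and 10.6 FPKM in white light (limma adjusted p = 0.105). LOC_Os08g36220 had 16.6 and 13.8 FPKM in shade, against 5.97 and 7.08 FPKM in white light (limma adjusted p = 0.130), and LOC_Os10g23090 had 44.5 and 37.5 FPKM in shade, against 11.6 and 24.8 FPKM in white light. All 3 have both shaded libraries above both white light libraries, an order favoured by their choice as the loci of smallest unadjusted limma p in the list. Early light-induced proteins, which protect the photosynthetic membranes under strong light, lay below white light in all 3 loci tested, with a median log2 change of -0.53 (-0.69 and -0.52). None of the 3 was called, and 15.5% of all loci lay below both white light libraries. LOC_Os07g08160 had 161 and 80.4 FPKM in shade, against 277 and 281 FPKM in white light (limma adjusted p = 0.231). LOC_Os07g08150 had 276 and 187 FPKM in shade, against 368 and 296 FPKM in white light (limma adjusted p = 0.509). LOC_Os01g14410 had 692 and 446 FPKM in shade, against 769 and 795 FPKM in white light (limma adjusted p = 0.728). In first leaves the same 3 loci had a median of -2.98. The clock list of 8 loci had a median of -0.01, with opposite signs against the white light replicates (0.03 and -0.13) and 4 loci on each side.

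**Figure D3:**
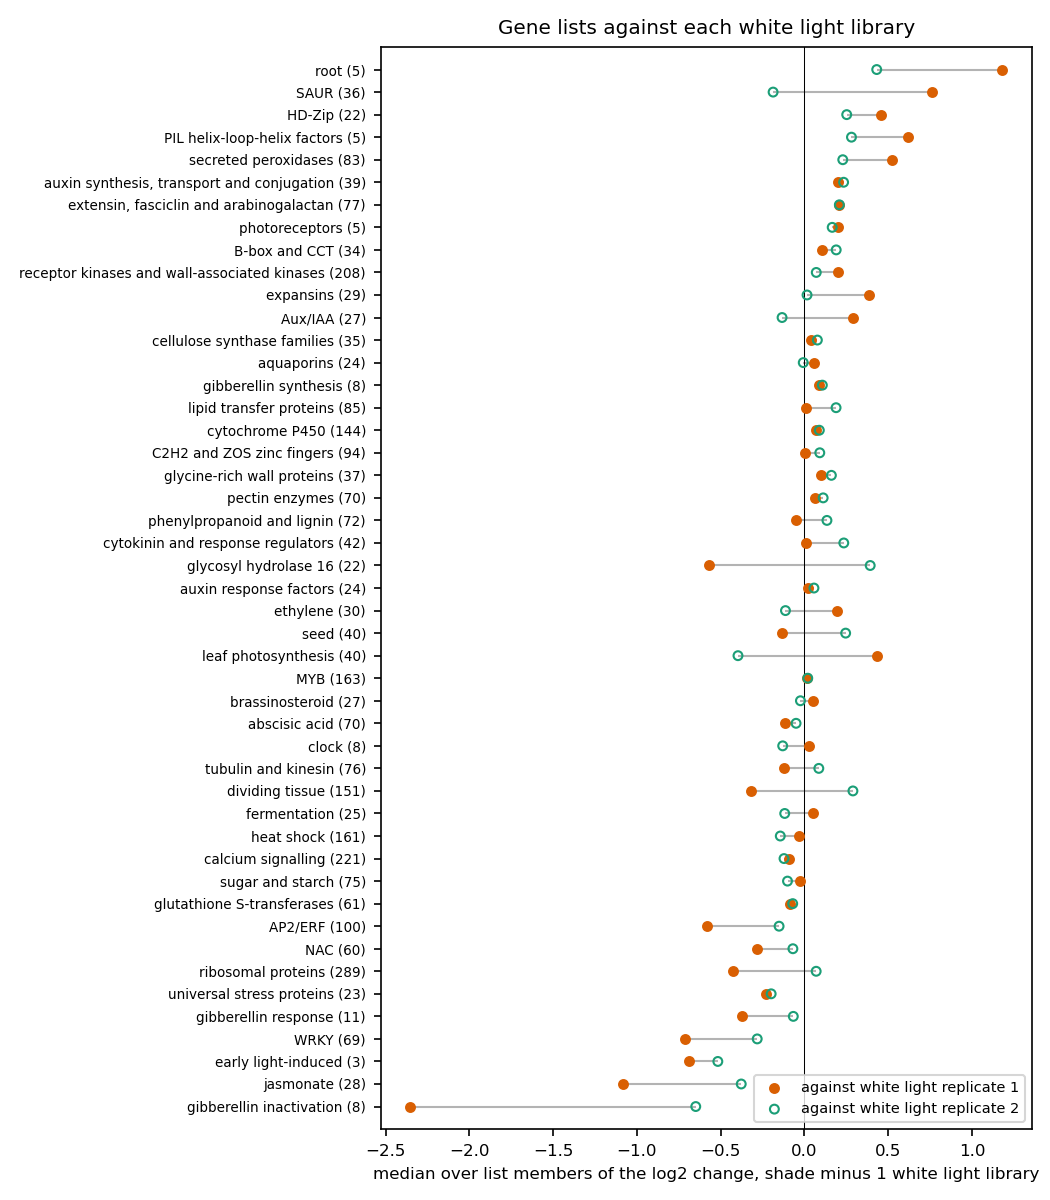
Median log2 change of each of the 47 gene lists, with the number of loci tested in parentheses, taken against white light replicate 1 (filled) and against replicate 2 (open). Gibberellin inactivation, jasmonate and WRKY lists lie below 0 against both replicates, HD-Zip loci lie above 0 against both, and SAUR, family 16, leaf photosynthesis and dividing tissue lists lie on opposite sides of 0.

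The 5 loci that fell include 3 without an annotated function. LOC_Os02g44230, CPuORF22, a transcript with a conserved peptide encoded upstream of its main reading frame, had 6.22 and 5.85 FPKM in shade, against 232 and 79.6 FPKM in white light. It fell by 4.29 on the log2 scale (SE 0.48, limma adjusted p = 0.0498). LOC_Os03g46090, of the endonuclease, exonuclease and phosphatase family, had 6.24 and 6.95 FPKM in shade, against 24.6 and 24.1 FPKM in white light (limma log2 change -1.74 ± 0.17 SE, adjusted p = 0.0424). Here the white light replicates were close together. LOC_Os01g58310 had 13.2 and 8.99 FPKM in shade, against 114 and 70.1 FPKM in white light, and LOC_Os04g54220 had 1.14 and 1.03 FPKM in shade, against 11.6 and 8.44 FPKM in white light (limma adjusted p = 0.0498 and 0.0430). LOC_Os06g37710 was listed at 0 in both shaded libraries and had 3.50 and 2.94 FPKM in white light (limma adjusted p = 0.0498).

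The set of 335 loci over 2-fold below held members of the stress and transcription factor lists. Loci of the stress lists made up 76 of the 335 (22.7%), against 5.56% of the loci tested, and loci of the transcription factor lists made up 47 of them, in a table where they are 2.63% of the loci tested. The transcription factor lists include the B-box, HD-Zip and helix-loop-helix light factors. Another 83 of the 335 are annotated only as expressed or hypothetical proteins. Since 62 of the 335 passed the filter only through the white light libraries, these shares describe the 335 loci. They are no test of the stress or transcription factor lists. The same limit holds for the shares of single lists over 2-fold below. None of these list members passed the limma test. WRKY28 (LOC_Os06g44010) had 0.697 and 0.630 FPKM in shade, against 174 and 25.99 FPKM in white light (limma adjusted p = 0.107). The helix-loop-helix locus LOC_Os04g23550, one of the 335 but outside these lists, had 4.39 and 7.11 FPKM in shade, against 431 and 131 FPKM in white light (limma adjusted p = 0.0932). LOC_Os05g07010, with a myb-like domain, had 0.0765 and 0 FPKM in shade, against 56.3 and 20.4 FPKM in white light (limma adjusted p = 0.105). All 3 were high in both white light libraries, and higher in replicate 1 than in replicate 2.

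The AP2/ERF family includes many ethylene and wound-induced factors. Of 100 loci tested, 16 lay over 2-fold below both white light libraries and 1 above, beside 1.61% and 0.326% of all loci. LOC_Os02g52670 had 6.20 and 8.39 FPKM in shade, against 523 and 111 FPKM in white light (limma adjusted p = 0.0672), and LOC_Os08g36920 had 2.95 and 7.28 FPKM in shade, against 245 and 109 FPKM in white light (limma adjusted p = 0.133). The 1 above was LOC_Os06g11860, with 15.7 and 15.4 FPKM in shade, against 5.82 and 5.93 FPKM in white light (limma adjusted p = 0.119). WRKY factors had 10 of 69 (14.5%) over 2-fold below and 0 above, beside the same shares of all loci. Their median log2 change was -0.37 (-0.71 and -0.28). WRKY71 (LOC_Os02g08440) had 37.5 and 42.1 FPKM in shade, against 375 and 175 FPKM in white light, and WRKY7 (LOC_Os05g46020) had 6.99 and 7.22 FPKM in shade, against 24.1 and 18.5 FPKM in white light. Within the list, 28 of 69 loci were over 2-fold higher in white light replicate 1 than in replicate 2. NAC factors had 7 of 60 (11.7%) over 2-fold below and 0 above, again beside the same shares. LOC_Os04g43560 had 1.75 and 1.45 FPKM in shade, against 10.2 and 14.1 FPKM in white light, where replicate 2 was the higher (limma adjusted p = 0.0837). LOC_Os01g15640 had 15.9 and 16.4 FPKM in shade, against 70.5 and 42.9 FPKM in white light.

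Jasmonate genes, whose hormone rises on wounding and touch, followed the same pattern. Of 28 loci tested, 8 (28.6%) lay over 2-fold below and 1 above, beside 1.61% and 0.326% of all loci. The median log2 change was -0.60, with -1.08 against white light replicate 1 and -0.38 against replicate 2. The ZIM domain locus LOC_Os10g25290, of the jasmonate repressors that the hormone itself induces, had 60.6 and 44.9 FPKM in shade, against 425 and 170 FPKM in white light (limma adjusted p = 0.130). The 12-oxophytodienoate reductase LOC_Os06g11240, of the family that includes a step of jasmonate synthesis, had 10.04 and 10.3 FPKM in shade, against 144 and 52.0 FPKM in white light. The locus above was LOC_Os04g24328, annotated as jasmonate-induced, with 2.96 and 4.23 FPKM in shade, against 0.0963 and 0 FPKM in white light (limma adjusted p = 0.0617), the first locus outside the threshold.

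Calcium signalling, universal stress and kinase lists also had members over 2-fold below white light, while most of their members lay closer to it. Of 221 calcium signalling loci tested, 13 (5.88%) lay over 2-fold below and 0 above, beside 1.61% and 0.326% of all loci. Of the 221, 97 were positive and 124 negative. The EF hand protein LOC_Os09g31000 had 0.109 and 0.5005 FPKM in shade, against 42.6 and 6.60 FPKM in white light, and the calmodulin-like sensor OsCML24 (LOC_Os07g48340) had 9.75 and 8.52 FPKM in shade, against 38.9 and 20.4 FPKM in white light. Universal stress proteins had 5 of 23 (21.7%) over 2-fold below, beside the same 1.61%. Among them was LOC_Os03g19270, with 6.42 and 5.08 FPKM in shade, against 45.7 and 19.7 FPKM in white light. The receptor kinase annotated as CRINKLY4 precursor (LOC_Os08g28710), which is outside the kinase list, had 3.83 and 3.89 FPKM in shade, against 345 and 55.6 FPKM in white light (limma adjusted p = 0.105). The wall-associated kinase OsWAK21 (LOC_Os02g56380) had 7.87 and 9.40 FPKM in shade, against 72.8 and 43.0 FPKM in white light (limma adjusted p = 0.0681). The zinc finger ZOS3-11 (LOC_Os03g32220) had 0.0758 and 0.0869 FPKM in shade, against 11.4 and 2.99 FPKM in white light. These 6 loci were highest in white light replicate 1. Of the kinase list, 6 of 208 (2.88%) lay over 2-fold below both white light libraries and 2 (0.962%) above, beside 1.61% and 0.326% of all loci. The kinase and zinc finger lists themselves were mostly positive, with 144 of 208 receptor and wall-associated kinases (median log2 change 0.17, 0.20 and 0.07 against the white light replicates) and 56 of 94 C2H2 loci. The receptor-like kinase LOC_Os01g07560 had 7.77 and 6.32 FPKM in shade, against 2.54 and 2.204 FPKM in white light (limma adjusted p = 0.116). The zinc finger ZOS9-14 (LOC_Os09g27650) had 15.4 and 16.2 FPKM in shade, against 6.55 and 6.16 FPKM in white light (limma adjusted p = 0.117).

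Among small heat shock proteins, chaperones that bind unfolded proteins, the white light replicates were close at some loci and apart at others. LOC_Os02g52150 had 3.30 and 3.08 FPKM in shade, against 10.003 and 10.5 FPKM in white light (limma adjusted p = 0.0866). LOC_Os03g15960 had 5.70 and 5.55 FPKM in shade, against 12.6 and 11.9 FPKM in white light (limma adjusted p = 0.130). LOC_Os03g16020, of the same hsp20 family, had 2.15 and 2.73 FPKM in shade, against 25.7 and 10.3 FPKM in white light, where replicate 1 was again far the higher (limma adjusted p = 0.107). The MYB loci LOC_Os06g10350, with 9.93 and 9.45 FPKM in shade, against 27.9 and 32.4 FPKM in white light, and LOC_Os01g41900, with 11.7 and 9.79 FPKM in shade, against 24.8 and 26.5 FPKM in white light, had close white light replicates. Over all 161 heat shock loci tested, 3 (1.86%) lay over 2-fold below, near the 1.61% of all loci.

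**Figure D4:**
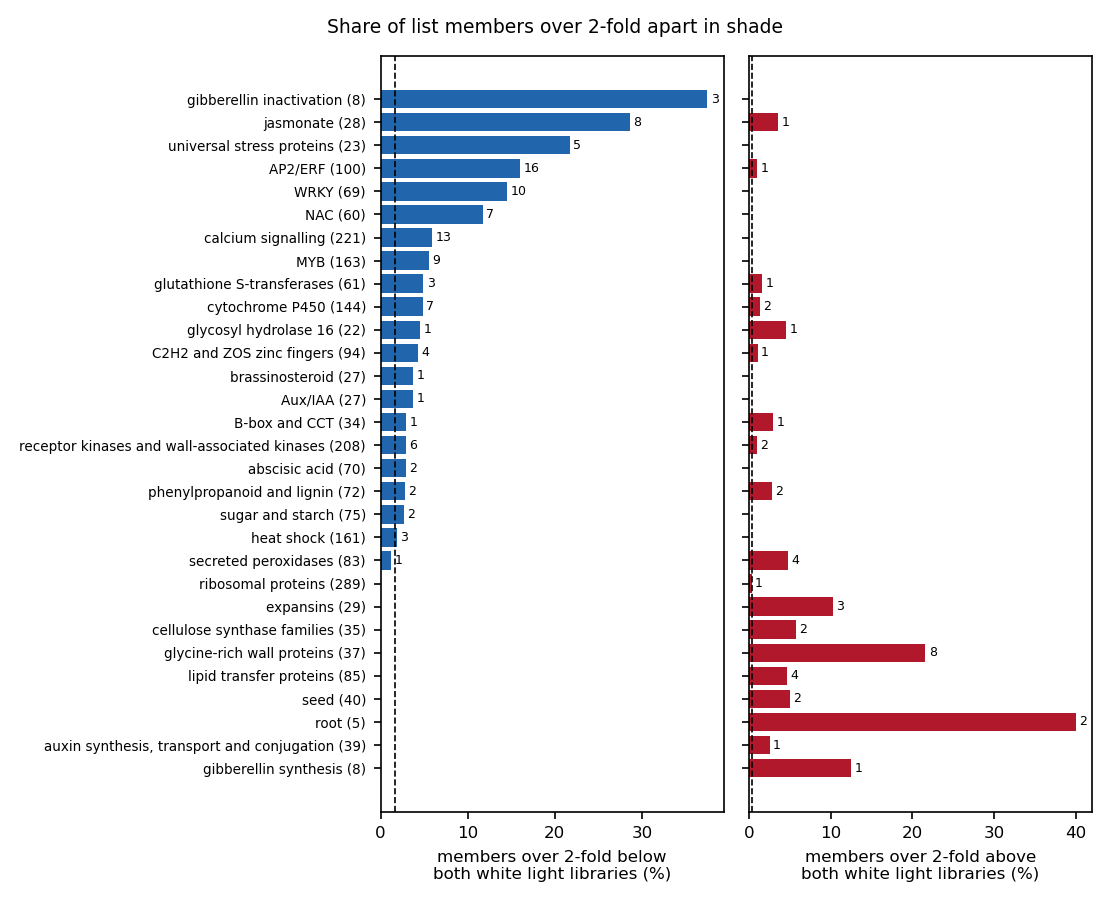
Share of the tested members of each list whose shaded libraries both lay over 2-fold below (left, blue) or over 2-fold above (right, red) both white light libraries, with the number of such members at the bar and the number tested in parentheses. The dashed lines mark the shares over all loci, 1.61% below and 0.326% above; gibberellin inactivation, jasmonate, universal stress, AP2/ERF, WRKY and NAC lists lie furthest to the right in the left panel.

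Other hormones and metabolism gave single non-overlapping loci and no calls. The brassinosteroid-related cytochrome P450 90C1 (LOC_Os07g04410) was listed at 0 in both shaded libraries and had 3.29 and 1.85 FPKM in white light (limma adjusted p = 0.101). In first leaves it had 3.36 and 2.83 FPKM in shade and was listed at 0 in both white light libraries, the reverse order, and the difference between tissues was not called. The ethylene-forming oxidase homologs LOC_Os08g30150 and LOC_Os03g48430 lay above white light and LOC_Os09g27750, oxidase 1, lay below. LOC_Os08g30150 had 12.8 and 10.5 FPKM in shade, against 5.01 and 5.95 FPKM in white light, and LOC_Os09g27750 had 30.8 and 25.9 FPKM in shade, against 51.7 and 45.9 FPKM in white light. The cytokinin-induced type-A response regulators were likewise split: OsRR4 (LOC_Os01g72330) had 23.5 and 18.4 FPKM in shade, against 11.6 and 13.2 FPKM in white light, and OsRR6 (LOC_Os04g57720) had 30.8 and 24.3 FPKM in shade, against 52.5 and 46.6 FPKM in white light. Protein phosphatases 2C, some of which hold back abscisic acid signalling, included LOC_Os03g10950, with 2.89 and 2.12 FPKM in shade, against 60.7 and 12.9 FPKM in white light (limma adjusted p = 0.134). The trehalose-6-phosphate synthase LOC_Os08g34580, an enzyme of a sugar signal, had 1.78 and 2.19 FPKM in shade, against 61.6 and 10.8 FPKM in white light. Cytochrome P450 loci reached both ends, with LOC_Os02g12690 at 40.2 and 34.8 FPKM in shade, against 13.7 and 14.1 FPKM in white light (limma adjusted p = 0.0898), and LOC_Os07g44140 at 10.5 and 15.1 FPKM in shade, against 349 and 102 FPKM in white light (limma adjusted p = 0.130).

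For large housekeeping lists the shade response could not be given a direction, because shade lay between the white light libraries. Of 151 loci of dividing tissue, 91 (60.3%) had both shaded libraries between the white light replicates, against 33.0% of all loci, with medians of -0.32 and 0.29 against replicates 1 and 2. Leaf photosynthesis loci had 55.0% between, with medians of 0.43 and -0.40, and ribosomal proteins 54.3%, with medians of -0.43 and 0.07. Not every member lay between. The photosystem II subunit LOC_Os07g05360 lay above both white light libraries, though close to replicate 2, with 39.1 and 35.7 FPKM in shade, against 6.52 and 34.6 FPKM in white light. A locus with a clearer order was the cyclin LOC_Os03g10650, with 21.8 and 20.7 FPKM in shade, against 42.6 and 36.8 FPKM in white light (limma adjusted p = 0.119). None of the 5 most abundant transcripts of the shaded coleoptile passed the test. The BURP domain protein LOC_Os05g12640 had 9719 and 6727 FPKM in shade, against 6401 and 5793 FPKM in white light, without overlap of the groups (limma adjusted p = 0.839). The jacalin-like lectin LOC_Os01g24710 had 8625 and 7300 FPKM in shade, against 8099 and 10772 FPKM in white light, with overlap. The protease inhibitor LOC_Os12g36240 had 6693 and 4600 FPKM in shade, against 7532 and 7317 FPKM in white light, without overlap (limma adjusted p = 0.7503).

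The coleoptile response was set against that of the first leaf, which uses other libraries and an older seedling, so tissue and age cannot be told apart. Over all 20835 loci the log2 changes of coleoptile and first leaf correlated at r = 0.178, a value across loci that are not independent replicates. Of the 68 loci above white light in the coleoptile, 43 (63.2%) had a positive log2 change in the first leaf, against 50.9% of all loci, and 32 were under 0.5 FPKM in all 4 first leaf libraries. Of the 335 loci below, 176 (52.5%) had a negative change in the first leaf, against 48.7% of all loci. More than 2-fold in the first leaf, 16 of the 335 moved the same way and 13 the other way. The difference of the responses, coleoptile minus first leaf, was called at 4 loci (0.0192%) in limma, with 1165 (5.59%) at an unadjusted p under 0.05. Of these, 3 are the chromosome 10 loci LOC_Os10g31530, LOC_Os10g31680 and LOC_Os10g31670. The fourth, the aldehyde dehydrogenase LOC_Os02g49720, had 7.69 and 9.19 FPKM in shaded coleoptiles, against 16.2 and 17.6 FPKM in white light coleoptiles, and 34.1 and 30.6 FPKM in shaded first leaves, against 8.93 and 7.08 FPKM in white light first leaves. Its responses ran in opposite directions, with a difference of -2.82 on the log2 scale (limma adjusted p = 0.0486). This count too depends on the white light coleoptile libraries, with 48 without replicate 1 and 907 without replicate 2, and it was 0 in limma without any 1 of the other 6 libraries (712 to 953 at an unadjusted p under 0.05).

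**Figure D5:**
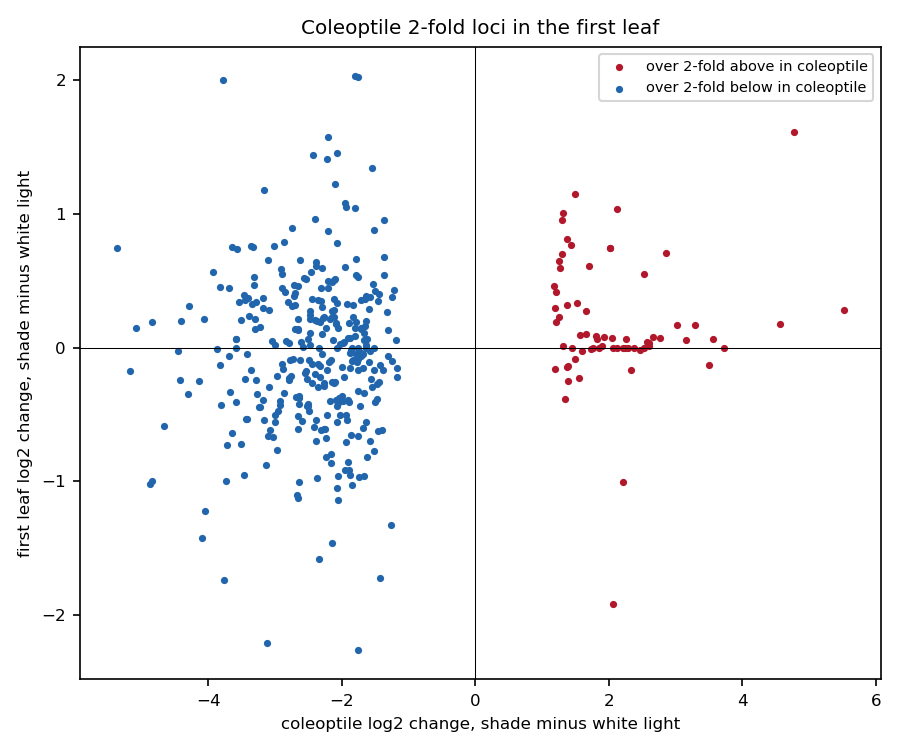
Log2 change, shade minus white light, in the coleoptile (horizontal axis) and in the first leaf (vertical axis) for the 68 loci over 2-fold above (red) and the 335 over 2-fold below (blue) in the coleoptile, in log2(FPKM + 1). Most points lie within 1 of 0 on the vertical axis, and the blue points are spread to both sides of it.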

How the data were processed

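The authors deposited FPKM values per locus, with annotation text, for 8 libraries (paired reads of 150 bp, per the labels). Per the submitters' processing notes, the tools were Cufflinks (with Cuffnorm and Cuffdiff) 2.2.1, Bowtie2 2.2.3, TopHat2 2.0.14, FastQC 0.11.2, Trim Galore 0.3.7 and bcl2fastq 2.16.0.10. The genome build is not given in the sources used here. Chromosomes were read from locus identifiers. No sequence is shown.

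Groups came from the labels. Loci whose mean reached 1 FPKM in the 4 coleoptile libraries were tested as log2(FPKM + 1) with limma 3.58.1 in R 4.3.3. A cell means model of 4 groups over all 8 libraries was used, with empirical Bayes moderation, an intensity trend and Benjamini-Hochberg adjustment within each contrast (4 residual and 3.22 prior degrees of freedom). The procedure was tested on simulated data. FPKM is not a count, so no count model was used. Errors are limma's standard errors (SE). The 47 lists are keywords in the annotation or locus identifiers; members and lists were chosen with earlier results of these data known. Named loci are all called loci, the 6 highest and 6 lowest of annotated function among loci over 2-fold from both white light libraries with a group mean of at least 10 FPKM, up to 3 loci of smallest unadjusted p per list and those listed by identifier, the 5 most abundant in shade and the 3 of smallest p for the difference between tissues. Alternatives changed the pseudocount, filter, scaling, weights, trend, block, fold and libraries.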

Additional observations from a re-analysis of the deposited data

Results flagged for a closer look

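At 4 loci the shade responses of coleoptile and first leaf differed in a test of the difference itself (limma on log2(FPKM + 1), coleoptile minus first leaf, adjusted p under 0.05). For LOC_Os10g31530, a glycine-rich cell wall protein, the difference was 4.38 (limma adjusted p = 0.0449). For LOC_Os10g31680, also glycine-rich, it was 3.73 (limma adjusted p = 0.0449). For LOC_Os10g31670, annotated as a retrotransposon protein, it was 3.48 (limma adjusted p = 0.0486). These 3 differences are set by the pseudocount, since the loci are listed at 0 in the white light coleoptile. For the aldehyde dehydrogenase LOC_Os02g49720 it was -2.82 (limma adjusted p = 0.0486), with levels above 0 in every library.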

How the results depend on the processing

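The 18 called loci became 0 with a pseudocount of 0.1 FPKM, 54 with no filter, 0 with a mean of at least 5 FPKM, 9 with the filter over all 8 libraries, 0 with the coleoptile libraries only and 3 with array weights. The settings with 0 calls in limma had 1371 to 2090 loci at an unadjusted p under 0.05. Leaving out 1 library gave 0 to 1826. The count stayed within 1.5 times with libraries scaled to equal medians (24), quantile normalization (12) and no intensity trend (24). The 4 loci called for the difference between tissues became 0 with a pseudocount of 0.1 FPKM, 27 with no filter, 0 with a mean of at least 5 FPKM, 0 with quantile normalization and 7 with no trend, and 0 to 907 without 1 library, with 712 to 1213 loci at an unadjusted p under 0.05 wherever the count was 0. The replicate block gave 4 calls in the coleoptile and 0 for the difference. Whether replicate numbers pair the samples is not settled here. Deviations of same-numbered libraries correlated at r = -0.148 to 0.081 over 6 pairs of groups (0.033 between shaded and white light coleoptiles). With 2 libraries a group, such small correlations cannot exclude pairing.

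The 68 loci over 2-fold above became 116 with the lower pseudocount, 26 with a mean of at least 5 FPKM, 29 at 3-fold and 110 to 529 without 1 library. The 335 below became 138 at 3-fold and 422 to 1492 without 1 library. Of the single loci named, 5 changed sign when 1 library was left out, with log2 changes of -0.26 to 0.47 (LOC_Os03g51030), -0.29 to 0.80 (LOC_Os07g05010), -0.48 to 1.79 (LOC_Os05g39990), -0.38 to 0.31 (LOC_Os09g36700) and -0.21 to 0.84 (LOC_Os01g03340). The cause of these changes was not tested. Depth is unknown, and values under 1 FPKM are read as low only.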

Other observations

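A few loci named by the rule belong to no comparison above. The ribonuclease T2 locus LOC_Os09g36700 had 5695 and 4073 FPKM in shade, against 3873 and 6275 FPKM in white light, and the trypsin inhibitor BBTI4 (LOC_Os01g03340) had 4323 and 3458 FPKM in shade, against 2165 and 4468 FPKM in white light. Both are among the most abundant transcripts of the coleoptile, and in both the shaded libraries lay within the range of the white light libraries. The pyruvate decarboxylase LOC_Os03g18220, an enzyme of ethanol fermentation, had 82.2 and 88.9 FPKM in shade, against 188 and 126 FPKM in white light (limma adjusted p = 0.306), while the fermentation list of 25 loci had a median log2 change of -0.07, with 0.05 and -0.12 against the white light replicates. The glutathione S-transferase LOC_Os10g38670 had 2.83 and 5.41 FPKM in shade, against 0.454 and 0.169 FPKM in white light (limma adjusted p = 0.117). Of the 61 loci of that list, 3 (4.92%) lay over 2-fold below both white light libraries and 1 above, beside 1.61% and 0.326% of all loci.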
